A study of Mus musculus with 8 samples.

Results

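Ribosomes are assembled in the nucleolus, where RNA polymerase I transcribes the precursor of most ribosomal RNA. Small nucleolar ribonucleoproteins (snoRNPs) guide the chemical modification of that precursor, and a large set of processing factors cut and fold it into the small and the large subunit. In stratified epithelia such as that of the esophagus, this synthesis is known to be most active in growing basal cells, and the MYC transcription factor is known as a driver of its genes. The genes described here are 42 listed factors of these steps, taken by symbol from a table of 55276 gene symbols. They were grouped by role into 6 genes of RNA polymerase I transcription, 8 of snoRNPs and their assembly, 12 of small subunit processing, 12 of large subunit processing and 4 abundant nucleolar proteins with several roles. All 42 were found, and all 42 passed the filter on low counts, with no member under 168 counts in any library.

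The RNA came from C57BL6 mice aged 14 to 15 weeks whose esophageal epithelium was dissociated and sorted by flow cytometry. Live cells (DAPI negative) with surface integrin beta-1 were parted by Cyto-ID, a dye that marks autophagic vesicles, into a fraction with little dye (Cyto-ID Low, named negative in the sample titles) and one with much dye (Cyto-ID High, named positive). There were 8 bulk libraries, 4 per fraction. The titles give each fraction 1 library from each of 4 animals (2 females and 2 males, numbered 1 and 2 within a sex), the labels name no transgene and no agent given to the animals, and the series asks how basal cells rich in autophagic vesicles differ in proliferation and self-renewal.

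Library totals were 26285150 to 28599954 counts in Low and 27486049 to 29301054 in High. Although both fractions were gated as basal cells, all 11 basal keratinocyte markers were lower in High (median log2 fold change −2.82) and all 12 suprabasal markers were higher (median 3.61). Krt4 and Krt13, keratins of the layers above the basal one, took 0.858% to 2.53% of counts in Low and 10.8% to 14.0% in High. Transcripts of other cell types varied between libraries, and no marker of these lists was at 0 in all libraries of a fraction. Summed fibroblast markers lay between 312 and 484 CPM (read counts scaled to a common library size) in Low and between 36.9 (Male2) and 464 in High (1 of 7 lower). Leukocyte markers lay between 67.5 and 111 CPM in Low and between 6.48 (Male2) and 108 in High (1 of 7 tested lower). Endothelial markers lay between 11.4 and 22.1 CPM in Low and 2.57 and 25.6 in High (0 of 6 called), and muscle markers between 40.6 and 64.3 in Low and 4.73 and 61.3 in High (1 of 8 lower). Gastric markers reached 19.4 CPM in Low Female2 and 117 in High Female2, against at most 1.11 in the other libraries. The part of these transcripts in the results on nucleolar genes was not tested.

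Most of the nucleolar genes that differed were lower in Cyto-ID High, by less than 2-fold, while a smaller group that included 2 RNA polymerase I genes and 2 H/ACA snoRNP genes was higher. Under scaling by library totals alone, described below, only Rrn3 and Nhp2 of that group stayed called higher. Of the 42 genes, 22 were lower in High (52.4%, where 25.3% of the 17344 genes tested were lower) and 7 were higher (16.7%, where 23.4% of tested genes were higher), at an adjusted p under 0.05 in edgeR's quasi-likelihood test. The other 13 did not pass. The median log2 fold change of the 42 was −0.40, beside −0.09 for all tested genes, and the members ran from −1.02 (Polr1b) to 1.29 (Nhp2). Only 3 of the 42 differed by 2-fold or more, Polr1b downward and Rrn3 and Nhp2 upward, where 15.3% of tested genes were called and at least 2-fold lower and 13.3% called and at least 2-fold higher. All 4 High libraries lay below all 4 Low libraries for 19 members (24.9% of tested genes) and above them for 7 (23.6%). With the animal as a replicate block 23 members were lower and 7 higher, where 28.5% and 25.4% of tested genes were. Without High Male2 they were 24 and 5 (23.8% and 20.5% of tested genes), and without both libraries of Male2 18 and 5 (20.7% and 20.4%). Without both libraries of Female2, which held gastric transcripts, 21 members were lower and 6 higher (21.7% and 21.6%). In bulk RNA, fewer cells of a type and less RNA per cell cannot be told apart.

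**Figure D1:**
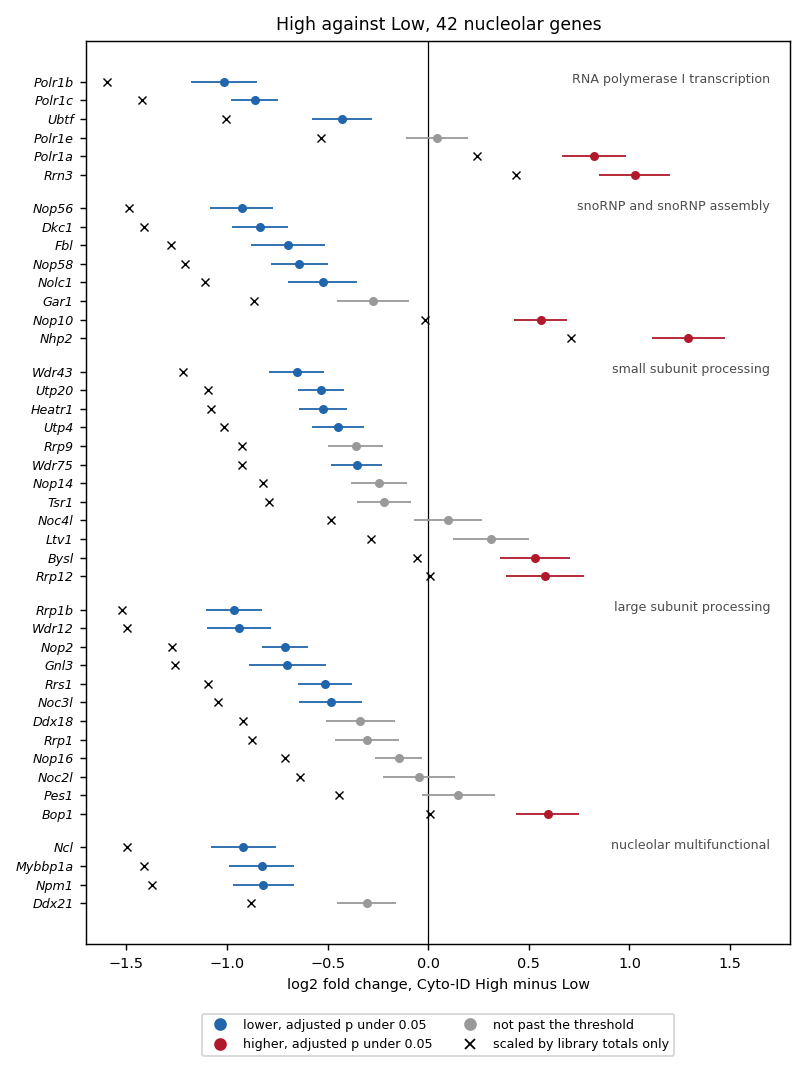
Log2 fold change of each of the 42 genes, Cyto-ID High against Low, from the edgeR fit on 4 libraries per fraction, with bars of 1 standard error, grouped by role; crosses give the value with library totals only. Estimates run from −1.02 for Polr1b to 1.29 for Nhp2, with 22 genes called lower and 7 called higher.

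How much lower the set was depended on how the libraries were scaled. As a share of all raw counts, the 42 genes together took 0.511%, 0.519%, 0.521% and 0.510% in the Low libraries of Female1, Female2, Male1 and Male2 and 0.267%, 0.260%, 0.263% and 0.259% in their High libraries. The raw shares were nearly constant within each fraction and did not overlap between them. The share of mitochondrial transcripts in raw counts was also lower in High without overlap (1.94% to 2.58% in Low, 1.19% to 1.71% in High), while after the main scaling 0 of 13 mitochondrial genes were lower and 1 was higher (median −0.03). Of 10 genes of the dissociation stress response, Jun (−0.84) and Atf3 (−0.96) were lower and Ier2 (0.62) was higher. The part of both in the members' values was not tested. The trimmed mean of M values (TMM), the main scaling, gave factors of 1.16 to 1.30 in Low and of 0.944, 0.792, 0.896 and 0.679 in High. With library totals alone, 34 members were lower and 2 higher (Nhp2 and Rrn3), against 22 and 7 with TMM, and the median was −0.97. The median over every gene tested went from −0.09 to −0.64 (the median of each gene's own shift was −0.56), and totals called 49.1% of tested genes lower and 12.6% higher. The members' median thus lay below that of all genes under both scalings. High Male2 had the lowest raw share of the 8 libraries and yet, after TMM, the highest member level of the High fraction: 39 of the 42 genes were above the High mean there, against 5 in High Female1.

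**Figure D2:**
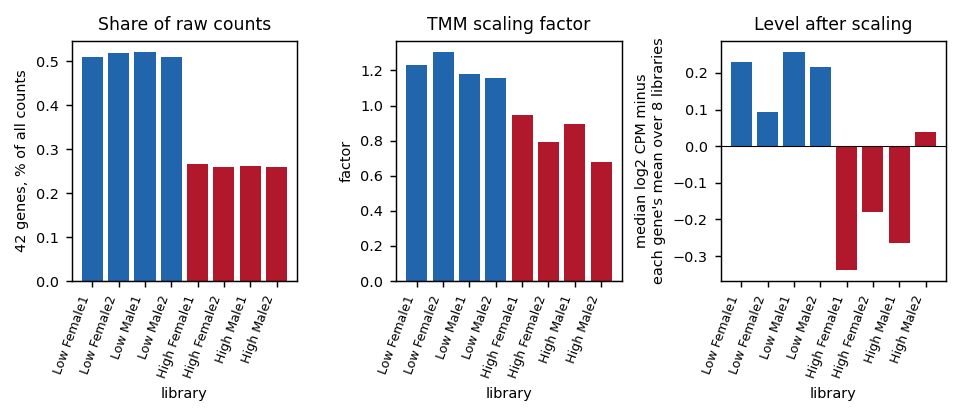
Per library, the share of raw counts taken by the 42 genes (left, percent), the TMM scaling factor (middle) and the median member log2 CPM after scaling, centred on each gene's mean over the 8 libraries (right). Raw shares are 0.510% to 0.521% in Low and 0.259% to 0.267% in High, while the scaled level of High Male2 (0.04) lies nearer the Low libraries (0.09 to 0.26) than the other High libraries do (−0.34 to −0.18).

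The genes of RNA polymerase I transcription went in both directions. Of the 6, 3 were lower, 2 were higher and 1 did not pass, with a median of −0.19. Polr1b, which encodes the second-largest catalytic subunit of the polymerase, was at 33.9, 43.8, 39.3 and 39.7 CPM in the Low libraries of Female1, Female2, Male1 and Male2 (the order used throughout) and at 15.5, 22.9, 17.5 and 21.8 CPM in High. The fractions did not overlap, and the difference was −1.02 ± 0.16 on the log2 scale (SE, adjusted p = 0.000663, edgeR). Polr1a encodes the largest subunit, which forms the active site together with that of Polr1b. It was at 57.8, 61.9, 55.6 and 54.4 CPM in Low and at 79.0, 106, 97.3 and 125 CPM in High. Every High library exceeded every Low one, by a fitted 0.82 ± 0.16 (adjusted p = 0.00195, edgeR), although with library totals the value was 0.24 and did not pass (adjusted p = 0.0993). Polr1c, a subunit shared with RNA polymerase III, was lower in High (60.03 ± 4.67 against 32.98 ± 0.993 CPM, SD, n = 4 each; −0.86 ± 0.12, SE; adjusted p = 0.000221, edgeR). Polr1e, a subunit of the heterodimer that helps initiation and elongation, gave 0.04 ± 0.15 (adjusted p = 0.856, edgeR).

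The initiation factors of the polymerase also differed from each other. Rrn3 (TIF-IA), which links the polymerase to the promoter of the ribosomal DNA and through which growth signals act, was at 53.6, 53.7, 51.3 and 58.2 CPM in Low. In High it was at 81.7, 132, 97.6 and 130.1 CPM, so that all 4 values lay above the Low range. Its difference was 1.03 ± 0.18 (SE, adjusted p = 0.000992, edgeR). Ubtf, the architectural factor that coats active ribosomal DNA repeats, was at 136, 162, 152 and 142 CPM in Low and at 93.8, 111, 104 and 132 CPM in High. The fractions came close in Male2 without overlapping, and the fitted difference was −0.43 ± 0.15 (adjusted p = 0.0356, edgeR). Its call was lost when any of High Female1 (adjusted p = 0.100), High Female2 (0.0597) or High Male1 (0.0997) was left out, without both libraries of Male2 (0.0511), with RLE size factors (0.0580) and without a filter on low counts (0.0564).

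Because MYC-family proteins bind the E-box CACGTG, the 250 bases before the RefSeq start (GRCm38.p6) were searched on both strands for that motif, for the ETS-type motif CCGGAAG and for the NRF1 motif of 10 bases; the motifs do not overlap in the windows shown. Of the 42 genes, 37 had an entry. The E-box was found in 2 of them (5.41%), beside 9.54% of the 11257 tested genes with an entry, the ETS-type motif in 8 (21.6%, beside 14.5%) and the NRF1 motif in 0 (beside 1.75%). Of the other pathway genes, a list summarised below, 116 had an entry. Of these, 13 held the E-box (11.2%), 41 the ETS-type motif (35.3%) and 3 the NRF1 motif (2.59%). The members with an E-box, Rrn3 and Nop2, moved in opposite directions, so their windows are shown here, 5′ to 3′ on the plus strand, with matches in capitals. Rrn3 (chr16:13780449-13780698) holds the E-box with its first base at positions −215 and −48, counted from the start at position 1 with no position 0. Nop2 (chr6:125131633-125131882) holds it at −60 and the ETS-type motif at −38. Neither window overlaps an exon of GENCODE M21.
Rrn3: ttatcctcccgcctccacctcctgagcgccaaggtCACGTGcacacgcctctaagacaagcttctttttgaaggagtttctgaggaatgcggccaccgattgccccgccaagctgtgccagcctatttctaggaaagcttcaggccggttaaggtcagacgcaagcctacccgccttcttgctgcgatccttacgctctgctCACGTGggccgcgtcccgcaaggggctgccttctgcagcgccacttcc
Nop2: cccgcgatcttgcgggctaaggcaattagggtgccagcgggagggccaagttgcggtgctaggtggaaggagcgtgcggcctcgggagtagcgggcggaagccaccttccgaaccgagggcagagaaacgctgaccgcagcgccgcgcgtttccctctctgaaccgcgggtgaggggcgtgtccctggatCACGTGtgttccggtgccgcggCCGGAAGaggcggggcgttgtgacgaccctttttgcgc
A match describes these letters and no binding was measured.

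Among the 8 snoRNP genes, the 3 of the box C/D particle and the assembly factor were lower, while those of the H/ACA particle were divided. Snu13, a further core protein of the C/D particle that stands on the list of other pathway genes and was chosen after its values were seen, did not pass (35.4 ± 1.66 against 35.6 ± 6.27 CPM, SD, n = 4 each; 0.01 ± 0.15, SE; adjusted p = 0.972, edgeR). Of the 8, 5 were lower, 2 were higher and 1 did not pass, with a median of −0.58. Nop56, a core protein of the C/D particle that guides 2′-O-methylation, was at 119, 86.8, 135 and 102 CPM in Low and 57.2, 52.1, 57.3 and 65.8 CPM in High. The fractions did not overlap (−0.93 ± 0.16, SE, adjusted p = 0.000825, edgeR). Its partner Nop58 was at 157, 126, 168 and 156 CPM in Low and 89.9, 105, 90.4 and 103 CPM in High. It too was lower in every High library than in any Low one (−0.64 ± 0.14, adjusted p = 0.00418, edgeR). Fbl (fibrillarin), the methyltransferase of that particle, was lower by −0.70 ± 0.18 (adjusted p = 0.0105, edgeR), but High Male2, at 21.2 CPM, lay above Low Female2, at 21.03 CPM. Nolc1, a chaperone of snoRNPs in the nucleolus, gave −0.52 ± 0.17 (adjusted p = 0.0292, edgeR) with overlapping fractions, since High Male2 (123 CPM) exceeded Low Female1 and Low Female2 (115 and 114 CPM). Without High Female1, High Female2 or High Male1 its adjusted p was 0.0784, 0.0514 and 0.0758, and without both libraries of Female2 it was 0.0558.

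The H/ACA particle, which converts uridine to pseudouridine and also takes part in telomerase, held both the member that rose most and a member that was called lower. Nhp2, one of its small core proteins, was at 70.5, 73.5, 60.2 and 88.02 CPM in Low and 161, 177, 151 and 228 CPM in High. All High values lay far above the Low range, at a fold of 2.45 (log2 1.29 ± 0.18, SE, adjusted p = 0.00029, edgeR), and Nhp2 was also called higher with library totals. Nop10, the smallest core protein, was at 29.1, 25.2, 31.9 and 32.1 CPM in Low and 41.0, 43.8, 38.6 and 50.2 CPM in High. Its fractions did not overlap after TMM (0.56 ± 0.13, adjusted p = 0.00617, edgeR), yet with library totals its difference was −0.01, so its direction rests on the scaling. Dkc1 (dyskerin), the pseudouridine synthase itself, was at 63.2, 79.0, 71.2 and 71.0 CPM in Low and 35.4, 46.7, 37.2 and 39.8 CPM in High. It was lower in High without overlap (−0.84 ± 0.14, adjusted p = 0.000793, edgeR), whereas Gar1, the protein that aids substrate turnover, did not pass (−0.28 ± 0.18, adjusted p = 0.236), though it did without High Male2 (−0.47, 0.0295).

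Ratios of raw counts between members of 1 complex do not depend on the scaling of the library. After the differences above had been seen, 18 such pairs were taken from the members of RNA polymerase I, the H/ACA particle, the C/D particle and PeBoW (Pes1, Bop1 and Wdr12, a complex of large subunit processing). In GRCm38 (GENCODE M21) Polr1a lies at chr6:71909053-71984935 and Polr1b at chr2:129100995-129126594, both on the plus strand. Dkc1 lies at chrX:75095854-75109777 and Nhp2 at chr11:51619735-51623714, also on the plus strand, and neither pair shares a locus. Exons of both Dkc1 and Nhp2 overlap a gene on the other strand, whose values are given with the other overlaps. The ratio Polr1a to Polr1b was 1.47 in Low and 5.25 in High (geometric means of 4 libraries), a log2 difference of 1.84. Its log2 value was 0.77, 0.50, 0.50 and 0.45 in Low and 2.35, 2.22, 2.48 and 2.52 in High, which left a wide gap between the fractions and little spread within them. Dkc1 to Nhp2 went from 0.979 to 0.224 (log2 difference −2.13), with log2 values of −0.16, 0.10, 0.24 and −0.31 in Low and −2.18, −1.92, −2.02 and −2.52 in High. Dkc1 to Nop10 went from 2.41 to 0.916 (−1.39), and Nhp2 to Nop10 from 2.46 to 4.10 (0.74). In contrast, Fbl to Nop56 (0.222 and 0.257), Fbl to Nop58 (0.161 and 0.154) and Polr1b to Polr1c (0.652 and 0.581) overlapped between fractions. The remaining C/D pair, Nop56 to Nop58, went from 0.725 to 0.599 (−0.27) without overlap. Its gap was narrow, with a log2 value of −0.607 in Low Male2 and −0.639 in High Male2.

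Of the 18 pairs, 15 did not overlap between the fractions. Such a gap was common: it was found for 50.8% of all pairs of tested genes with a count in every library, and for 56.4% of the 861 pairs of members. Each of the 15 had an exact two-sided permutation p of 0.0286, the smallest that 4 against 4 can give, and 0.0343 after Benjamini-Hochberg adjustment over the 18. With libraries paired by animal the smallest exact permutation p possible is 0.125. Because the pairs share members and were chosen with the differences known, these values describe the members and are not independent of the fold changes. Length cancels in the comparison of a ratio between fractions, but a ratio of counts is not a ratio of molecules.

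**Figure D3:**
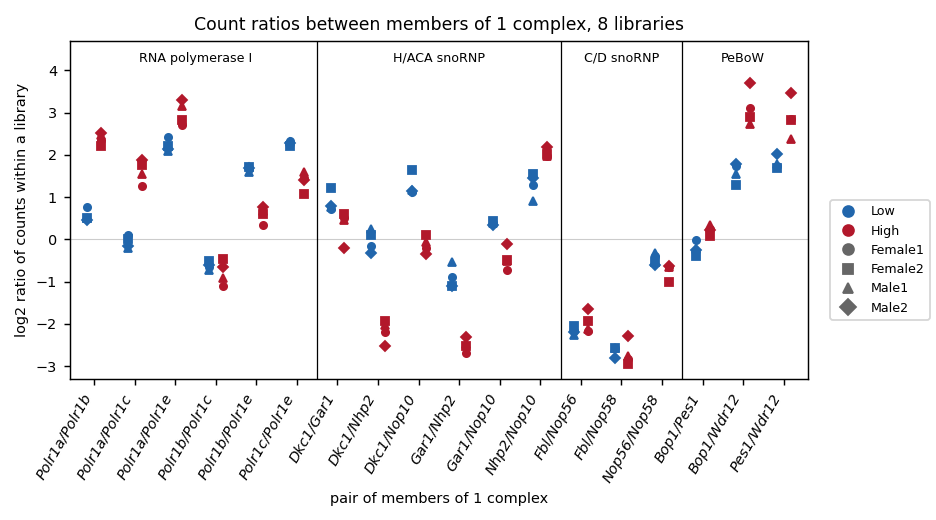
Log2 ratio of raw counts between pairs of genes of 1 complex, 1 point per library, Low and High. The ratio Polr1a to Polr1b rises from 0.45 to 0.77 in Low to 2.22 to 2.52 in High, and Dkc1 to Nhp2 falls from −0.31 to 0.24 to −2.52 to −1.92.

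In small subunit processing, 5 of 12 genes were lower, 2 were higher and 5 did not pass, with a median of −0.30. Wdr43, of the complex that binds the 5′ end of the precursor, had the lowest fold change of the 12 and was at 112, 87.5, 113 and 104 CPM in Low and 67.7, 66.0, 59.8 and 70.3 CPM in High. The fractions did not overlap (−0.65 ± 0.14, SE, adjusted p = 0.00299, edgeR). Of the same early complex, Heatr1 (−0.52 ± 0.12, adjusted p = 0.00489, edgeR), Utp4 (−0.45 ± 0.13, 0.0163) and Wdr75 (−0.36 ± 0.13, 0.0389), were also lower, while Utp15 (−0.24 ± 0.17, 0.269) and Nol11 (−0.34 ± 0.14, 0.0788), which stand on the list of other pathway genes and were chosen after their values were seen, did not pass. Utp20, a scaffold of the processome, was lower (−0.53 ± 0.12, adjusted p = 0.00373, edgeR). Utp4 lost its call without High Male1 (adjusted p = 0.0593) and without both libraries of Male2 (0.0652). Wdr75 lost its own without Low Male1, High Female1, High Male1 or High Male2 (adjusted p = 0.0706 to 0.103), without both libraries of Male2 (0.137), with RLE size factors (0.0603), with DESeq2 (0.0571) and without a filter on low counts (0.110).

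Both higher genes of this group are known to act late in small subunit maturation, but late factors did not move together. Among the other pathway genes, picked after their values were seen, Riok2 (−0.79, adjusted p = 0.00064, edgeR) and Nob1 (−0.46, 0.0187) were lower. Riok3 (0.78, 0.00265) was higher, and Pno1 (0.30, 0.121) and Riok1 (0.16, 0.583) did not pass. Rrp12, which takes part in export of the pre-40S particle, was at 54.1, 31.7, 45.2 and 46.6 CPM in Low and 59.3, 57.5, 60.6 and 90.2 CPM in High. The lowest High value stood only just above the highest Low one, and the difference was 0.58 ± 0.20 (SE, adjusted p = 0.0323, edgeR). Bysl (bystin), of the same late particle, was at 36.0, 29.7, 35.8 and 38.5 CPM in Low and 41.4, 50.4, 42.02 and 69.2 CPM in High. Its fractions did not overlap (0.53 ± 0.17, adjusted p = 0.0282, edgeR), but with library totals Bysl was at −0.06 and Rrp12 at 0.01. Neither call held without Low Male1, High Female2 or High Male2 (adjusted p = 0.0585, 0.0559 and 0.0886 for Rrp12, 0.0507, 0.0809 and 0.0847 for Bysl), and that of Rrp12 was also lost without High Female1 (0.0534). Without both libraries of Male2 neither passed (adjusted p = 0.0991 for Rrp12 and 0.0663 for Bysl), nor did Bysl without both of Female2 (0.0774). Ltv1, an export adaptor of pre-40S, was at 56.7, 57.2, 63.2 and 64.5 CPM in Low and 52.3, 91.5, 64.3 and 91.3 CPM in High. The High libraries of Female2 and Male2 stood above the rest and the other 2 did not, and the gene did not pass (0.31 ± 0.19, adjusted p = 0.211). Rrp9, a protein of the U3 snoRNP, gave −0.36 ± 0.14 and just missed the threshold (adjusted p = 0.0518, edgeR), which it passed with the animal as a replicate block (0.0217), without High Male2 (0.0298) and without Low Female2 (0.0452). Nop14 (−0.25), Tsr1 (−0.22) and Noc4l (0.10), which act in assembly and maturation of the subunit, did not pass either.

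In large subunit processing, 6 of 12 genes were lower, 1 was higher and 5 did not pass, with a median of −0.41. Rrp1b, a nucleolar relative of Rrp1, was at 25.0, 24.5, 27.6 and 20.9 CPM in Low and 11.5, 12.1, 13.5 and 13.2 CPM in High. The fractions were well apart (−0.96 ± 0.14, SE, adjusted p = 0.000346, edgeR). Rrp1 itself, the highest of the 12 in CPM, was at 193, 158, 188 and 162 CPM in Low and 129, 128, 132 and 181 CPM in High. Only High Male2 reached the Low range, and the gene did not pass (−0.30 ± 0.16, adjusted p = 0.148, edgeR), though it did without that library (−0.43, 0.0444). Gnl3 (nucleostemin), a nucleolar GTPase known from stem and dividing cells, was at 179.8, 98.9, 202 and 159 CPM in Low and 89.6, 90.5, 102 and 109.8 CPM in High. It was lower (−0.70 ± 0.19, adjusted p = 0.0135, edgeR), but Low Female2 fell within the High range.

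The PeBoW complex was divided. Bop1 was at 53.1, 51.1, 54.5 and 59.7 CPM in Low and 70.7, 76.4, 71.8 and 112 CPM in High, with no overlap (0.59 ± 0.16, SE, adjusted p = 0.0112, edgeR), while library totals gave 0.01. Wdr12 was lower (18.2 ± 2.12 against 9.50 ± 1.25 CPM, SD, n = 4 each; −0.94 ± 0.16, SE; adjusted p = 0.000865, edgeR), and Pes1 did not pass (0.15 ± 0.18, adjusted p = 0.545). The count ratio Bop1 to Wdr12 went from 3.00 to 8.61, and Pes1 to Wdr12 from 3.50 to 7.35, with no overlap in either. Nop2, a methyltransferase of the large ribosomal RNA, was lower (65.4 ± 1.43 against 39.9 ± 2.77 CPM, SD, n = 4 each; −0.71 ± 0.12, SE; adjusted p = 0.000703, edgeR). Rrs1, which brings in the 5S particle, gave −0.51 ± 0.14 (0.0105). Noc3l, of the early pre-60S particles, gave −0.48 ± 0.16 (0.0275), a call lost without Low Male1 or any 1 of 3 High libraries (Female1, Male1, Male2; 0.0664 to 0.0725) and without both libraries of Male2 (0.0911). The helicase Ddx18 (−0.34), Nop16 (−0.15) and Noc2l (−0.05) did not pass, though Ddx18 did without High Male2 (−0.49, adjusted p = 0.0321, edgeR).

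The 4 abundant nucleolar proteins had the lowest median, −0.82, with 3 lower and none higher. Ncl (nucleolin), which binds ribosomal RNA and its chromatin, was at 953, 968, 1049.7 and 1115 CPM in Low and 475, 564, 476 and 642 CPM in High. It took more counts than any other member, and its fractions were far apart (−0.92 ± 0.16, SE, adjusted p = 0.00114, edgeR). Npm1 (nucleophosmin), a chaperone of ribosomal proteins, was at 268, 275, 293 and 266 CPM in Low and 166, 181, 157 and 124 CPM in High. It was lower without overlap (−0.82 ± 0.15, adjusted p = 0.00151, edgeR), and unlike most members it was lowest in High Male2. Mybbp1a, a nucleolar MYB-binding protein, was at 236, 249, 269.6 and 276 CPM in Low and 119.8, 139, 131 and 193 CPM in High. Its fractions did not overlap (−0.83 ± 0.16, adjusted p = 0.00196, edgeR). Ddx21, an RNA helicase of RNA polymerase I and II transcripts, was at 252, 228, 250.2 and 277 CPM in Low and 178, 215, 189 and 232 CPM in High. High Male2 lay within the Low range and the gene did not pass (−0.31 ± 0.14, adjusted p = 0.111, edgeR).

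**Figure D4:**
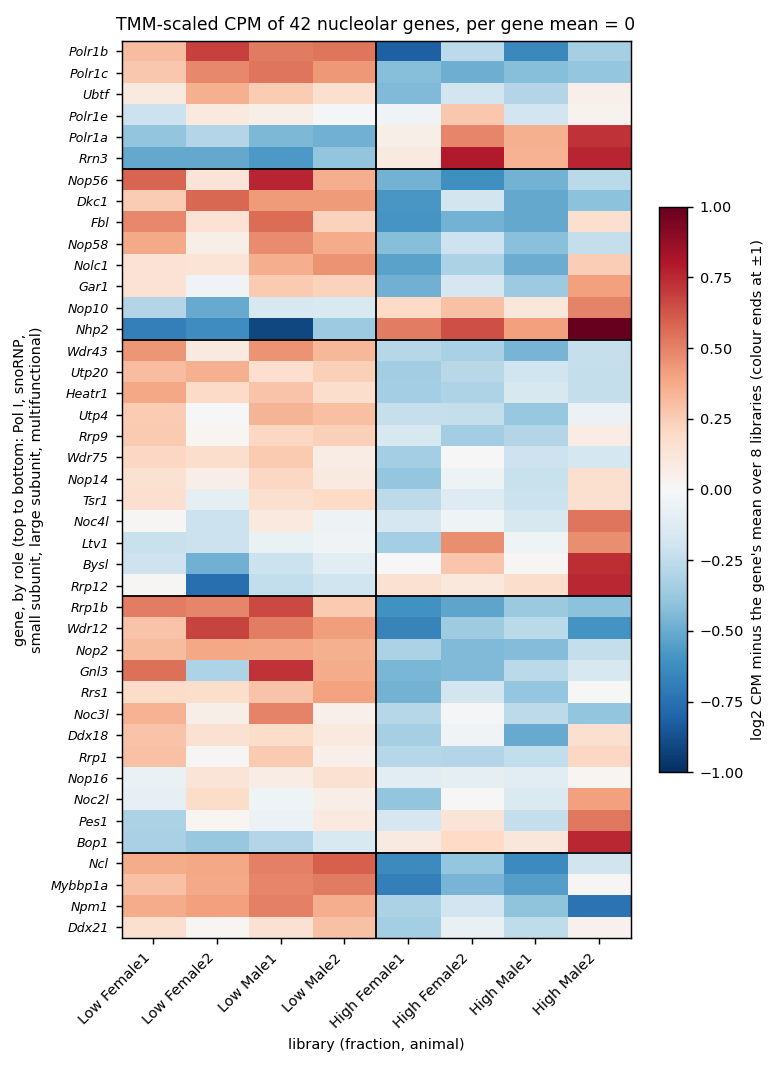
Log2 CPM of each of the 42 genes in the 8 libraries, centred on the gene's mean, in role order. The higher genes (Nhp2, Rrn3, Polr1a, Bop1, Rrp12, Nop10, Bysl) stand against the others, and High Male2 is above the High mean for 39 of 42 genes.

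Per kilobase of joined exon, only a rough scale for levels of different genes, Npm1 (103 ± 4.60 CPM per kb, SD, n = 4) and Ncl (100.3 ± 7.43) stood first in Low and did not differ beyond their spread. Nhp2 followed at 63.8 ± 10.0, then Rrp1 at 52.6 ± 5.24 and Ddx21 at 48.6 ± 3.82, the ranges of these neighbours overlapping. On each gene's own counts, Nhp2 came first in High at 156 ± 30.1, and Npm1 (58.8 ± 9.07) and Ncl (52.9 ± 7.90), whose ranges overlapped, came next. The place of Npm1 rests on leaving out its near-identical copies (described next): with their counts added it was at 306 ± 23.3 in Low and 173 ± 18.4 in High, first in Low and within the range of Nhp2 in High. Wdr12 was last in both fractions, at 1.53 ± 0.177 in Low and 0.795 ± 0.104 in High. The lengths join all annotated exons of a gene, so genes with many alternative exons are set too low. Ncl had 10.188 kb in 12 joined exons and Wdr12 11.955 kb in 14, against 2.665 kb in 13 for Npm1. The places of Ncl and Wdr12 therefore rest on these lengths.

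Several members share sequence with other genes, and how the deposited counting dealt with this is not given in the sources used here. Pseudogene copies of at least 200 bases and 95% identity exist for 7 members in GENCODE M21. The 4 copies of Npm1 carried 197% of its own counts in Low and 191% in High, and the 1 copy of Ddx18 carried 161% and 157%. With the counts of copies added, Npm1 was at −0.83 (adjusted p = 0.00162, edgeR), Nop56 at −0.88 and Ddx18 at −0.37 (adjusted p = 0.0506), and no member's call changed. Exons of 17 members overlap a gene on the other strand, 8 of them lower and 4 higher, and without knowledge of strand their reads cannot be told apart. Among these are Nhp2, whose neighbour Rmnd5b was also higher (0.90), Bop1 beside Mroh1 (0.62), Dkc1 beside Mpp1, which was also lower (−0.40, adjusted p = 0.0346, edgeR), and Mybbp1a beside Spns2, which went the other way (2.49). Nhp2 was at 179 CPM in High against 38.2 for Rmnd5b, and Bop1 at 82.8 against 45.4 for Mroh1. Mean levels of Mpp1 were 50.3 CPM (Low) and 38.1 CPM (High), beside 71.1 and 39.8 CPM for Dkc1. The 25 members without such overlap held 14 lower and 3 higher genes. Of all members, 52.4% were lower and 16.7% higher. Within 7 members lie 21 snoRNA genes in all (Nop56 5, Nop58 4, Wdr43, Gnl3 and Ncl 3 each, Tsr1 2, Dkc1 1). Of these 7 hosts, 6 were lower and Tsr1 was not called, beside 52.4% of all members and 25.3% of tested genes lower. Whether hosts differ from the other members was not tested.

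The rest of the pathway was summarised from a list of 142 further genes, of which 141 were found and tested. Of these, 57 were lower (40.4%, beside 25.3% of tested genes), 12 were higher (8.51%, beside 23.4%) and 72 did not pass, with a median of −0.28. With library totals 122 were lower (86.5%, beside 49.1% of tested genes) and only Surf6 was higher (0.709%, beside 12.6%), with a median of −0.85, so the calls of the other higher genes named next rest on the scaling. The count of higher genes fell to 7 without High Male2 and to 6 without both libraries of that animal. Among RNA polymerase I factors, 5 of 13 were lower and 2 higher. Tcof1 (treacle), which joins the polymerase to its template and to processing, was lowest of all at −1.84 ± 0.15 (57.6 ± 5.00 against 16.2 ± 2.45 CPM, SD, n = 4 each; adjusted p = 1.66e-05, edgeR), and Taf1d, of the promoter selectivity factor, was at −0.96. The subunits Polr1g (listed as Cd3eap, 0.95, and 0.37 with library totals) and Polr1d (0.60, and 0.04) were higher. Of 9 snoRNP assembly genes 7 were lower and 0 higher, led by the AAA+ ATPases Ruvbl1 (−1.48) and Ruvbl2 (−1.08). This list's median, −0.88, was the lowest.

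Of 50 further small subunit genes, 19 were lower and 4 higher, with the helicases Ddx52 (−0.91) and Ddx47 (−0.90) lowest and the kinase Riok3 (0.78, and 0.22 with library totals) and Dcaf13 (0.67, and 0.10) highest. Of 56 large subunit genes, 20 were lower and 6 higher, with Nop53 (−1.08) and the ATPase Spata5 (−1.02) lowest. Eif6, which keeps the new large subunit from joining the small one, was higher (252 ± 45.5 against 479 ± 91.7 CPM, SD, n = 4 each; 0.92 ± 0.18, SE; adjusted p = 0.00229, edgeR; 0.35 with library totals, adjusted p = 0.0655), as was Surf6 (1.12, and 0.54 with library totals, adjusted p = 0.00682). Of 13 genes of the RNA exosome, the complex that trims ribosomal RNA ends, 6 were lower and 0 higher, with Exosc8 (−1.08) and Exosc2 (−0.97) lowest.

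Myc itself was at 317, 319, 414 and 404 CPM in Low and 326, 354, 288 and 487 CPM in High. The fractions overlapped (0.01 ± 0.18, SE, adjusted p = 0.976, edgeR), while library totals gave −0.58 (adjusted p = 0.00381). Mxd1, whose protein competes with MYC for its partner MAX, was at 133, 54.4, 83.4 and 109 CPM in Low and 331, 327, 279 and 459 CPM in High. It was higher in every High library (1.87 ± 0.28, adjusted p = 0.000465, edgeR) and under library totals too (1.30). Of the 10 regulators tested on the list that holds both, 2 were lower and 5 higher (median 0.26), against 4 lower and 3 higher with library totals. Max, the partner of both MYC and MXD1, was higher (1.00 ± 0.17, SE, adjusted p = 0.000852, edgeR; 0.42 with library totals). Mycl, a relative of Myc, gave 0.91 ± 0.25 (adjusted p = 0.0142, edgeR), a call lost with library totals (0.32, adjusted p = 0.271), without High Female2 (0.75, 0.0666) and without Low Male1 (0.81, 0.0505). Mxi1, a relative of Mxd1, was also higher (1.55, and 0.95 with library totals), while Mxd4, of the same family, did not pass (−0.29, adjusted p = 0.261, edgeR) and was lower with library totals (−0.87, adjusted p = 0.00279). The lower genes were Maf1, a repressor of RNA polymerase III (−1.15), and Trp53 (−1.37), and the fifth higher one was Mdm2 (0.51, and −0.05 with library totals). The call of Mdm2 (adjusted p = 0.0343, edgeR) was also lost without Low Male1, High Female1, High Female2 or High Male2 (0.0663 to 0.0836). Nor did it hold without both libraries of Male2 (0.0586) or of Female2 (0.0548). Other than Myc and Mxd1, the regulators are named after their values were seen.

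Cytosolic ribosomal protein genes, the structural counterpart of this machinery, had a median of −0.33, with 20 of 78 lower and 0 higher. The share lower, 25.6%, was near the 25.3% of all tested genes. With library totals 70 were lower (89.7%, beside 49.1% of tested genes; median −0.89). A fit with the animal as block called 34 of them lower (43.6%, beside 28.5% of tested genes), and the count was 11 without both libraries of Female2 (14.1%, beside 21.7%) and 6 without both of Male2 (7.69%, beside 20.7%). Cell cycle genes moved further: all 14 S phase genes (median −1.81) and all 12 G2/M genes (median −2.80) were lower in High. The part of these shifts in the nucleolar values was not tested.

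**Figure D5:**
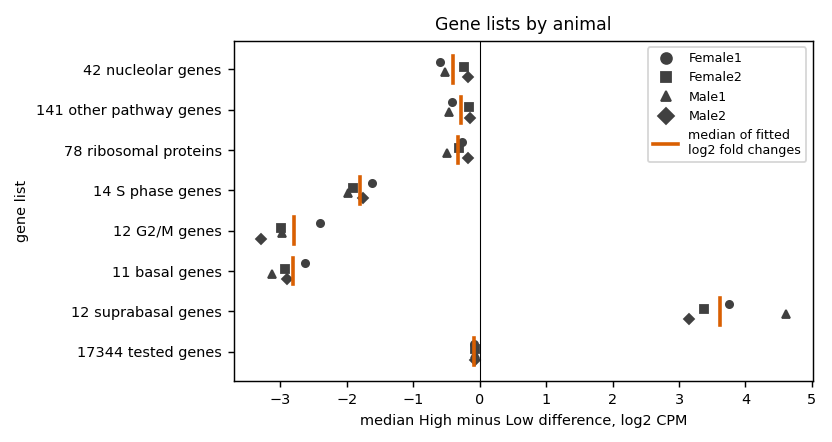
Median High minus Low difference in log2 CPM over each gene list, 1 symbol per animal, with the median of fitted log2 fold changes as a line. The 42 nucleolar genes lie between −0.60 and −0.18 in the 4 animals, closer to the 17344 tested genes (−0.09 to −0.07) than to the S phase, G2/M, basal and suprabasal lists.

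By animal, the members' median difference was −0.60 (Female1), −0.24 (Female2), −0.52 (Male1) and −0.18 (Male2) (mean −0.39 ± 0.21, SD, n = 4). All 4 were negative, and they were furthest from 0 in Female1 and Male1. The edgeR interaction test with 2 animals per sex called no dependence on sex for any member: 0 of 42 passed after adjustment (0% of 17344 genes) and 0 had an unadjusted p under 0.05, with and without the animal as a replicate block. Over all genes only 19 had an unadjusted p under 0.05 (38 with the block), far under a share of 0.05 of 17344 genes. The test was thus conservative and could call little, for reasons not tested. It does not show that the members differ alike in both sexes. Across the 8 libraries, the correlation of a member's log2 CPM with the mean of the other members had a median of 0.78 and exceeded 0.9 for 12 genes. It ran from −0.68 for Nhp2 to 0.97 for Nolc1, a description over libraries that share the difference between fractions. The 5 genes outside the list most like the members' mean were Qrich1 (Pearson r = 0.988), Arhgef16 (0.986), Tent4a (0.985), Ube2z (0.984) and Anapc5 (0.983), over 8 libraries.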

How the data were processed

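Bulk RNA-seq counts from 8 libraries of sorted mouse esophageal cells were used. The deposited file is a gene-by-library matrix of read counts, not normalized: its values are whole, and the column sums differ. STAR 2.7.3, DESeq2 and GRCm38 are named in the submitters' processing notes, with no role stated. The counting tool, annotation and strandedness are not given in the sources used here.

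Column names gave the animal and fraction of every library. In R 4.3.3, edgeR 4.0.16 (filterByExpr, TMM scaling, quasi-likelihood test, sex as covariate) compared High with Low over all 17344 tested genes, two-sided, with Benjamini-Hochberg adjustment and a threshold of 0.05. CPM were computed with TMM-scaled library sizes, and a prior count of 2 was added for log2 values. A standard error is the absolute log2 fold change divided by the square root of F. The fit was also run on simulated counts in which raised and lowered genes were balanced. That run held no shift in composition between the fractions, so it could not test the choice of scaling. Precision is limited by 4 libraries per fraction, and errors cover the spread between libraries, with no molecular identifiers stated.

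Members and gene lists were chosen with earlier results of these data known. In each role group, values per library were given for the 2 members highest in mean CPM, those highest and lowest in fold change and those called against the majority. Members that lose their call without 1 library or under the block were named. Of other pathway genes, the 2 highest and 2 lowest called per role were named, with Myc and Mxd1 as regulators and the 5 genes most like the members' mean. 1 listed pathway gene, Nopchap1, had no matching symbol in the table. The names of animals pair the libraries: the correlation of deviations from the fraction means, High with Low of the same animal across genes, was 0.43, 0.32, −0.02 and 0.28 for Female1, Female2, Male1 and Male2. Libraries of unlike animals gave −0.37 to 0.35 (High Male1 with Low Female1 highest), so for Male1 the pairing comes from the names alone.

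Alternatives were RLE size factors, library totals, no filter, at least 10 counts in every library, DESeq2 1.42.0, limma-voom (limma 3.58.1), no covariate, animal as block, each library left out, and both libraries of Male2 or Female2 left out. The addition of copies, the count ratios, their background over all pairs and their recomputation without single libraries were chosen after seeing the data. Annotation, lengths and overlaps came from GENCODE M21 (GRCm38), and promoters from RefSeq (GRCm38.p6).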

Additional observations from a re-analysis of the deposited data

Results flagged for a closer look

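Within each fraction, each member's 4 log2 CPM values were checked for 1 library far from the other 3, which made 84 groups. Chance marks about 1 in 20 groups, and 6 stood out here, 5 of them through High Male2. In High Male2, Fbl was at 4.41 log2 CPM against 3.67 to 3.78 in the other High libraries, Rrp12 at 6.50 against 5.85 to 5.92, and Bop1 at 6.81 against 6.14 to 6.26. In the same library Rrp1 was at 7.50 against 7.003 to 7.05 and Nop16 at 5.08 against 4.95 to 4.96. The sixth was Tsr1, which in Low Female2 was at 5.57 against 5.82 to 5.86 in the other Low libraries. High Male2 also had the lowest TMM factor, 0.679. Without TMM, scaled by the library total alone, Nop16 in High Male2 was the lowest of the High libraries (22.9 against 24.6 to 29.03), Rrp1 lay next to the others (123 against 101 to 122), and Fbl (14.4 against 10.8 to 11.9), Bop1 (76.2 against 60.5 to 66.7) and Rrp12 (61.2 against 45.5 to 56.0) were again the highest.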

How the results depend on the processing

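Of the 42 members, 19 had the same sign and the same call under all 19 alternatives. With library totals only, 34 members were lower and 2 higher with a median of −0.97, and 122 and 1 of the other pathway genes were lower and higher. Without a filter on low counts, 53 other pathway genes were lower and 7 higher, where 13.5% and 11.5% of 35027 genes were. Without both libraries of Male2, 39 were lower and 6 higher, where 20.7% and 20.4% of genes were. Leaving out 1 library at a time gave 17 (without High Male1) to 24 (without High Male2) members lower and 5 to 7 higher (beside 20.6% to 24.1% and 19.6% to 23.0% of tested genes), medians of −0.48 to −0.35, and 44 to 57 other pathway genes lower and 7 (without High Male2) to 14 higher. With the animal as a replicate block, 23 members were lower (Rrp9 joining) and 7 higher with a median of −0.40, and 64 and 14 other pathway genes were lower and higher. The block changed no other member's call.

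Signs turned for 7 members, 5 of them not called. With library totals Polr1e was at −0.53, Noc4l at −0.48, Pes1 at −0.44, Ltv1 at −0.28, Bysl at −0.056 and Nop10 at −0.014. Noc2l turned to 0.016 with RLE factors and with DESeq2, and to 0.011 without both libraries of Female2. Noc4l turned to −0.038 without both libraries of Male2. With 1 library left out, Noc2l ran from −0.207 (without High Male2) to 0.0715 (without High Female1), Polr1e from −0.0788 (without Low Female1) to 0.119 (without High Male1), Noc4l from −0.0762 (without High Male2) to 0.212 (without High Male1), Pes1 from −0.0242 (without High Male2) to 0.286 (without High Male1), and the log2 ratio Fbl to Nop58 from −0.211 (without High Male2) to 0.0103 (without High Female2). In all, 10 members lost their call in some alternative and 12 gained one. The causes were not tested. The lowest member count in any library was 168, and standard errors on the log2 scale were 0.12 to 0.20 with 4 libraries per fraction.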
